A study of Caenorhabditis elegans with 4 samples.

Results

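The genes of translation initiation and elongation factors were followed in embryos of *C. elegans* with and without the germ plasm proteins MEG-1 and MEG-2. They were chosen by name, as every row of the expression table whose gene name starts with *eif-*, *eef-*, *ife-*, *ifg-*, *iff-* or *eft-*, which gave 27 of 42048 genes. Wild-type embryos came from N2 worms fed bacteria with the empty L4440 vector. *meg-1 meg-2* embryos, called mutants here, came from *meg-1(vr10)* worms, which carry a partial deletion of *meg-1*, fed bacteria expressing *meg-2* dsRNA, so that *meg-2* was depleted by RNAi and not deleted. Worms of both genotypes were grown at 20°C from synchronized L1 larvae, each genotype had 2 libraries that the labels call biological replicates, and RNA came from whole embryos, so that a change in some cells, fewer cells of a type and less RNA per cell cannot be told apart.

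Initiation factors bring the small ribosomal subunit to the start codon of an mRNA. eIF4E binds the cap of the mRNA and, through the scaffold eIF4G, connects it to eIF3 and the small subunit, which then scans for the start codon with eIF1 and eIF1A. Elongation factors drive the reading of codons: eEF1A delivers the charged tRNA, eEF1B reloads eEF1A with GTP, eEF2 moves the ribosome along and eIF5A helps at peptide bonds that form slowly. *C. elegans* has several eIF4E genes and a pair of eIF5A genes, some of which are known for use in the germ line and others for use in somatic cells. IFE-1 is known as the eIF4E of P granules.

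The libraries held between 20662429 and 26017429 reads on genes. Levels are given in fpm, the number of reads scaled for depth by size factors to a library of 1e6 reads, and as FPKM, fpm per kb of the deposited gene length, where genes are compared with each other. The reads on *meg-1* were 1933 and 2423 in wild type compared with 19 and 18 in mutants, and those on *meg-2* were 515 and 677 against 141 and 172. The markers of embryo stage were lists chosen with earlier results of these data known. Of these, 14 of 14 maternal transcripts and 6 of 9 tested early zygotic transcripts were called higher in *meg-1 meg-2* embryos. Of the late somatic transcripts, 5 of 9 tested were called lower. The shares over all genes tested were 13.8% higher and 7.84% lower. The summed level of the sperm list was at most 0.354 fpm in any library, with *msp-3*, *msp-10*, *msp-142* and *ssp-9* at 0 reads in all 4. The yolk list summed to at most 2.94 fpm.

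All 27 factors passed the filter on low values, a mean of at least 1 fpm over the 4 libraries. They took between 1.32% and 1.49% of the reads on genes. The fewest reads fell on *ife-5*, with between 62 and 80 in a library, and every other factor had at least 986. Per length they ranged in wild type from *ife-5* at 4.32 FPKM to *eef-1A.1* at 3757 FPKM, with a median of 119.9 FPKM. In *meg-1 meg-2* embryos the same genes were lowest and highest, at 5.47 and 4910 FPKM.

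Most of the factors had higher levels in *meg-1 meg-2* embryos than in wild type, by less than 1.5-fold. By limma on log2(fpm + 0.5) with Benjamini-Hochberg adjustment over the 12734 genes tested, 9 of the 27 were higher at an adjusted *P* below 0.05 and 1, *eef-1A.2*, was lower. Among all genes tested, 13.8% were called higher and 7.84% lower. By a second rule, a change of at least 1.5-fold with an unadjusted *P* below 0.05, 0 factors were higher and 0 lower, against 5.53% and 3.12% of all genes, although 13 factors had an unadjusted *P* below 0.05. The count of factors at 1.5-fold was 0 higher and 1 lower with edgeR, DESeq2, TMM scaling and scaling by library size alone. Among all genes it was 535 higher and 761 lower with edgeR and 554 and 437 with DESeq2. With TMM scaling it was 478 and 581 genes, and with library size alone 481 and 601. The count of factors also changed when a library was left out. It was 4 higher without wild type B (10.6% of all genes), 1 lower without wild type A (2.2%), and 1 higher and 1 lower without *meg-1 meg-2* B (4.92% and 2.09%).

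The median log2 fold change of the 27 factors was 0.26, with a range from -0.56 to 0.58, and that of all genes tested was 0.01. Both mutant libraries lay above both wild-type libraries in 20 factors, as they did in 35.4% of all genes. They lay below both in 2 factors, *iff-2* and *eef-1A.2*, against 30.1% of all genes. In the other 5 factors, *eif-3.F*, *ifg-1*, *ife-2*, *ife-4* and *eef-2*, the libraries of the genotypes overlapped.

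**Figure D1:**
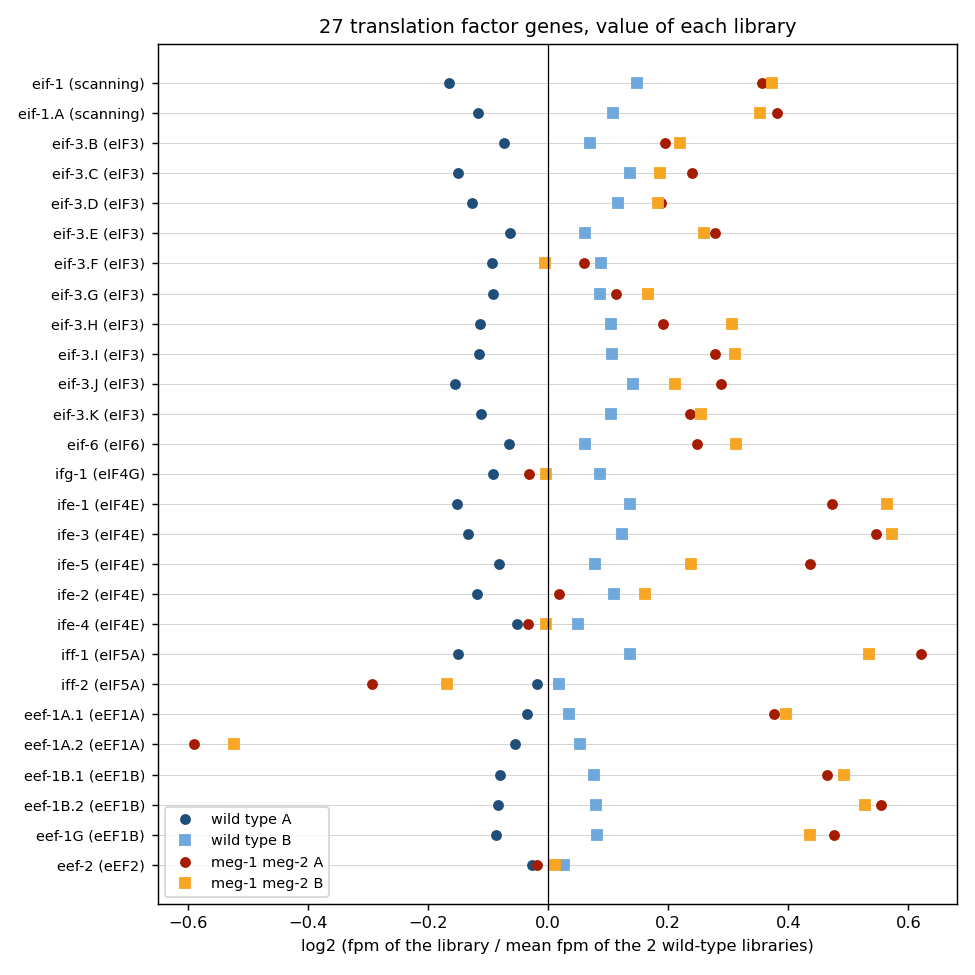
Level of each of the 27 factors in each of the 4 libraries, as the log2 ratio of its fpm to the mean fpm of the wild-type libraries (horizontal axis, 0 is the wild-type mean), with the factor family in brackets. Wild type B lies to the right of wild type A in all 27 genes, and both mutant libraries lie to the right of wild type B in 20 of them.

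Between the wild-type libraries, these genes differed in one direction. Wild type B was above wild type A in 27 of 27 factors, by a median of 0.18 on the log2 scale, against 7681 of 12734 genes and a median of 0.10 over all genes tested. The mutant libraries differed by a median of 0.02. The 14 maternal markers moved the same way. Their summed level was 1105 fpm in wild type A, 1428 fpm in wild type B and 1918 and 1960 fpm in the mutant libraries, while the late somatic markers summed to 5257, 4479, 3177 and 3347 fpm in the same order. The part of embryo stage in the changes described here was not tested.

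**Figure D2:**
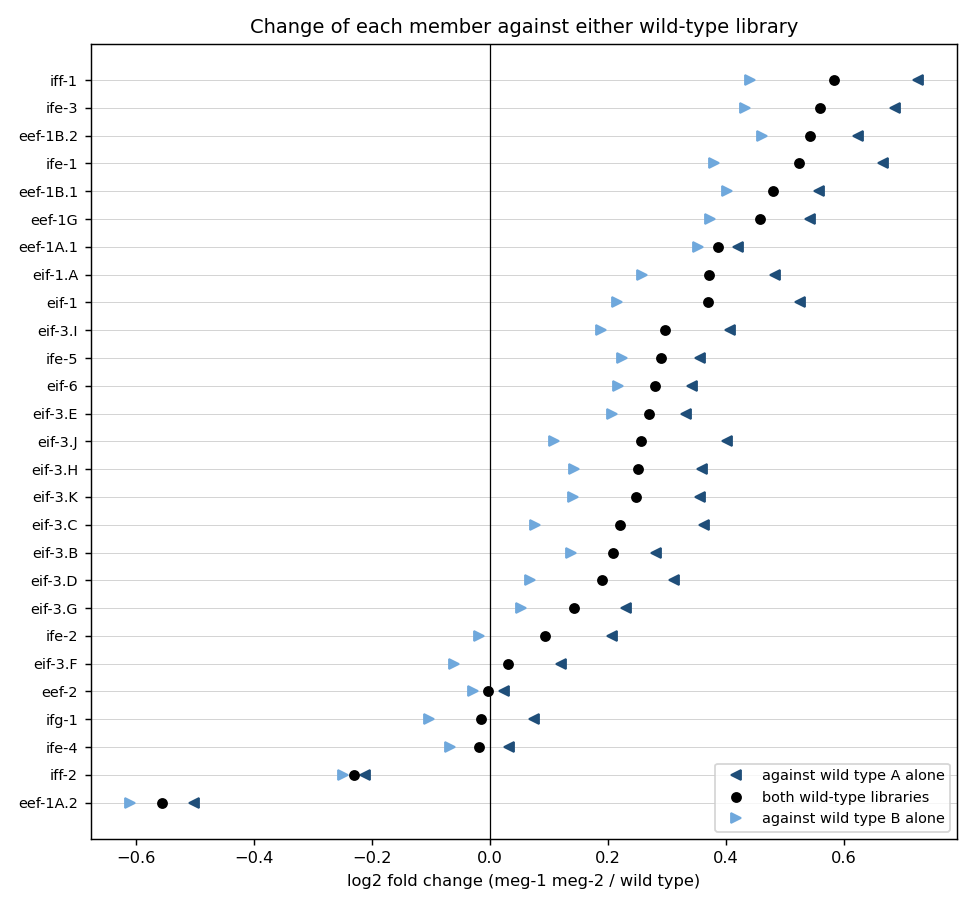
Log2 fold change of each factor (horizontal axis, log2(fpm + 0.5) in mutants relative to wild type) from both wild-type libraries (circles), from wild type A alone (triangles pointing left) and from wild type B alone (triangles pointing right). The change against wild type B was the lower one for all 27 genes, and *eef-1A.2* stood lowest under each.

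Set against each wild-type library alone, the median change of the factors was 0.36 from wild type A and 0.14 from wild type B. The number of factors called by limma was 20 higher and 2 lower without wild type B, where 35.9% of all genes were called higher and 25.9% lower. It was 12 higher and 2 lower without wild type A, against 19% and 14% of all genes. In both fits the spread came from the mutant pair alone, and the median SE of the factors was 0.06 on the log2 scale, against 0.13 with all 4 libraries. Without either mutant library the number called was 0 higher and 0 lower, with 6 factors (without A) and 3 factors (without B) at an unadjusted *P* below 0.05, and the shares of all genes were 0.212% higher and 0.126% lower without A and 0.212% and 0.11% without B. There the spread came from the wild-type pair alone and the median SE was 0.26, while the median change, 0.26 without A and 0.25 without B, was close to the 0.26 with all 4 libraries. The calls were also lost without a filter on low values and on the FPKM scale (0 higher and 0 lower, with 13 factors at an unadjusted *P* below 0.05 in each), and all but that on *eef-1A.2* by limma without its mean trend. The median change of the factors was 0.26 in each of these settings.

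The scanning factors were both higher in *meg-1 meg-2* embryos. *eif-1*, the gene of eIF1, which guards the choice of the start codon, had 62.6 and 77.7 fpm in the wild-type libraries compared with 89.8 and 90.8 fpm in mutants. Its log2 fold change was 0.37 ± 0.13 (SE, limma adjusted *P* = 0.0343). *eif-1.A*, the gene of eIF1A, had 122.3 and 142.9 fpm in wild type compared with 172.7 and 169.4 fpm in mutants, a change of 0.37 ± 0.12 (adjusted *P* = 0.0235). The groups did not overlap for either gene, and the wild-type libraries were further apart than the mutant libraries. The call on *eif-1* held under 7 of 18 alternatives. It was lost with TMM scaling, with edgeR (adjusted *P* = 0.0637) and with DESeq2 (adjusted *P* = 0.0504), among others. The log2 fold change of *eif-1* was between 0.26 and 0.37 under the alternatives with all 4 libraries. It was 0.21 without wild type A and 0.53 without wild type B.

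The subunits of eIF3, the large complex that holds the small subunit ready for the mRNA, had similar levels and small changes in the 10 genes named *eif-3*. Subunits listed under other names are not among these 10, such as subunit L (*C17G10.9*), which is given under other observations. The 10 *eif-3* genes lay in wild type between 76.2 FPKM (*eif-3.H*) and 142.7 FPKM (*eif-3.F*), a 1.87-fold range, and between 90.6 and 145.5 FPKM in *meg-1 meg-2* embryos, for the same genes. Each mutant library exceeded each wild-type library in 9 of the 10, all but *eif-3.F*, as in 35.4% of all genes tested. The log2 fold changes ran from 0.03 (*eif-3.F*, below 0 with other scalings) to 0.30 (*eif-3.I*), with a median of 0.23.

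Of the eIF3 subunits, 0 of 10 passed the limma test, and 2, *eif-3.E* and *eif-3.I*, had an unadjusted *P* below 0.05. edgeR and DESeq2 also called 0 of 10. *eif-3.I*, which had the smallest *P* of the complex in this fit, had 101.9 and 118.7 fpm in wild type compared with 133.7 and 136.8 fpm in mutants (adjusted *P* = 0.0781). The log2 fold change of *eif-3.I* was 0.41 without wild type B and 0.19 without wild type A. *eif-6*, the gene of a factor that keeps the large subunit from joining too early, was similar, with 51.1 and 55.8 fpm against 63.4 and 66.4 fpm (log2 fold change 0.28, adjusted *P* = 0.128).

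*ifg-1*, the gene of the eIF4G scaffold, did not change beyond the spread between libraries. It had 450.9 and 510.3 fpm in wild type compared with 470.3 and 479.4 fpm in mutants, so that both mutant values fell between the wild-type values. The log2 fold change was -0.01 ± 0.12 (SE, adjusted *P* = 0.940 by limma).

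The eIF4E genes divided by isoform. The germline isoforms *ife-1* and *ife-3* were higher in *meg-1 meg-2* embryos, while the isoforms assigned to the soma, *ife-2* and *ife-4*, had overlapping values. *ife-1*, whose protein is found on P granules, had 64.8 and 79.2 fpm in the wild-type libraries compared with 99.9 and 106.5 fpm in mutants. That was a log2 fold change of 0.52 ± 0.13 (SE, limma adjusted *P* = 0.00212). *ife-3*, which is needed for embryos to develop, had 44.6 and 53.3 fpm in wild type compared with 71.4 and 72.7 fpm in mutants. Its change was 0.56 ± 0.14 (adjusted *P* = 0.00164). For both genes the lowest mutant library was above the highest wild-type library.

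*ife-5*, a germline isoform close to *ife-1*, was the least abundant of all the factors. It had 2.47 and 2.76 fpm in wild type compared with 3.54 and 3.09 fpm in mutants, from 65, 72, 80 and 62 reads. The log2 fold change was 0.29 ± 0.23 (adjusted *P* = 0.369). That error was too wide at this depth to tell the change apart from 0 or from those in *ife-1*, *ife-2* and *ife-4*. *ife-2*, found mostly in the soma and also in the germ line, had 83.3 and 97.5 fpm in wild type compared with 91.5 and 101.1 fpm in mutants (0.09 ± 0.13, adjusted *P* = 0.630). *ife-4*, known from neurons and muscle, had 47.5 and 51.0 fpm against 48.1 and 49.1 fpm (-0.02 ± 0.14, adjusted *P* = 0.939). In both somatic isoforms the libraries of the genotypes were interleaved.

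Per length, the order of the eIF4E genes in wild type was *ife-2* (131.6 ± 14.6 FPKM, SD, n = 2), *ife-1* (103.5 ± 14.6), *ife-4* (77.0 ± 3.86), *ife-3* (64.7 ± 8.12) and *ife-5* (4.32 ± 0.336). Neighbours in this order did not overlap between libraries, the closest being *ife-4* in wild type A at 74.3 FPKM and *ife-3* in wild type B at 70.5 FPKM. In *meg-1 meg-2* embryos the means were 148.3 ± 6.73 FPKM for *ife-1*, 140.2 ± 9.79 for *ife-2*, 95.3 ± 1.23 for *ife-3* and 76.0 ± 1.09 for *ife-4*. The first 2 overlapped between libraries, and *ife-3* lay above *ife-4* in both, the reverse of their wild-type order. *ife-5* stayed last, at 5.47 ± 0.529 FPKM. These orders rest on the deposited lengths, which are shorter than the annotated exons of these genes by differing amounts.

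**Figure D3:**
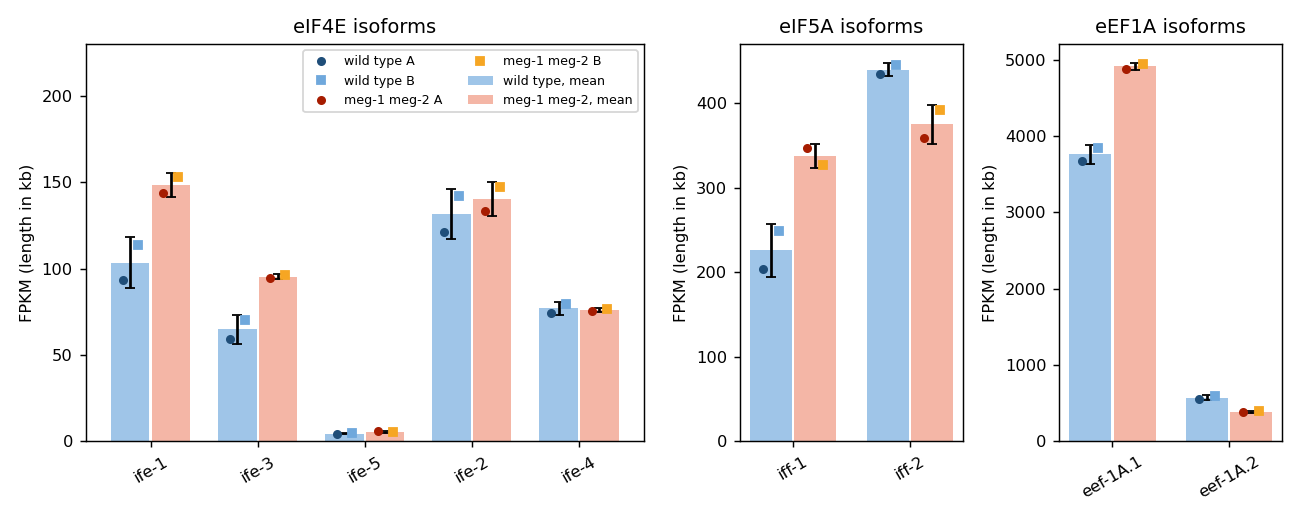
Level per length (vertical axis, FPKM with the length in kb, starting at 0) of the eIF4E, eIF5A and eEF1A genes in wild type and mutants. Bars are means of 2 libraries, error bars are SD and points are libraries. *ife-1*, *ife-3*, *iff-1* and *eef-1A.1* stood higher and *eef-1A.2* lower in both mutant libraries, while *ife-2* and *ife-4* overlapped.

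Expressed as a ratio within each library, the summed FPKM of the germline isoforms (*ife-1*, *ife-3*, *ife-5*) over that of the somatic isoforms (*ife-2*, *ife-4*) was 0.799 and 0.852 in wild type compared with 1.169 and 1.136 in mutants. With the deposited lengths, the ratio was above 1 in both mutant libraries and below 1 in both wild-type libraries. The exons in the WBcel235 annotation are longer, 995 bp against 696 bp for *ife-1* and 1118 against 756 for *ife-3*. For *ife-2* they cover 835 bp against 687 bp, and for *ife-4* 850 against 639. Whether the ratio lies above 1 therefore depends on the length used. The difference between genotypes was 0.48 on the log2 scale, a 1.40-fold higher ratio. A two-sided exact permutation test gave *P* = 0.333, the smallest value that 2 libraries against 2 allow. With *ife-5* left out the difference was 0.49, with *ife-2* left out 0.55, and with the mean of log2 values in place of the sum 0.44.

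Among the eIF4E transcripts, *ife-1* made up 27.1% of the summed FPKM in wild type and 31.9% in *meg-1 meg-2* embryos, and *ife-3* made up 17.0% and 20.5%. The share of *ife-2* was 34.5% and 30.1%, and that of *ife-4* 20.3% and 16.3%. *ife-5* contributed 1.135% and 1.178%. The total of the family was 351.7 and 410.4 FPKM in the wild-type libraries compared with 452.4 and 478.3 FPKM in mutants.

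In the WBcel235 annotation, *ife-1* lies on chromosome III (13343417 to 13344618, plus strand), *ife-3* on chromosome V (6584 to 7828, minus strand) and *ife-5* on chromosome II (12280660 to 12284139, plus strand). The somatic isoforms are both on chromosome X, *ife-2* at 381385 to 382709 on the minus strand and *ife-4* at 1104212 to 1106251 on the plus strand. Exons of *ife-1* share 246 of 995 bases with those of *dro-1* on the same strand. *dro-1* itself had 14.3 and 16.5 fpm in wild type compared with 22.8 and 23.1 fpm in mutants (log2 fold change 0.56, limma adjusted *P* = 0.0110), and reads from the shared bases cannot be assigned to either gene with certainty. Exons of *ife-3* share 51 bases with *idpp-2* (*B0348.5* in the table) on the opposite strand, which had at most 2.55 fpm in any library.

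The eIF5A genes moved apart. *iff-1*, the germline isoform, which germ cells need to proliferate, had 119.8 and 146.0 fpm in wild type compared with 204.3 and 192.4 fpm in mutants. The change of 0.58 ± 0.12 (SE, limma adjusted *P* = 0.000244) was the largest rise among the 27 factors in this fit. Other factors exceeded it without wild type A (*eef-1B.2*, 0.46 against 0.44), without *meg-1 meg-2* A (*ife-3* and *ife-1*, both 0.57, against 0.54) and with the trend on gene length removed (*eef-1B.2*, 0.58 against 0.51). *iff-2*, the somatic isoform, had 211.0 and 216.4 fpm in wild type compared with 174.3 and 190.3 fpm in mutants (-0.23 ± 0.12, adjusted *P* = 0.162). The libraries of the genotypes did not overlap for either gene. *iff-2* missed the threshold here but passed it as lower with TMM scaling, quantile normalization, scaling by library size alone and edgeR, and without either wild-type library (adjusted *P* between 0.00389 and 0.858 over the alternatives).

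The ratio of *iff-1* to *iff-2* per length was 0.469 and 0.557 in the wild-type libraries compared with 0.969 and 0.836 in mutants. The difference was 0.82 on the log2 scale or 1.76-fold, with an exact permutation *P* of 0.333, again the smallest possible. *iff-1* made up 33.9% of the summed FPKM of the pair in wild type and 47.4% in *meg-1 meg-2* embryos. The total of the pair was 637.8 and 693.6 FPKM against 706.2 and 718.8 FPKM. The annotated exons of *iff-2* cover 1013 bp against a deposited length of 486 bp, and those of *iff-1* 674 bp against 588 bp. The shares and the level of the ratio therefore depend on the length used, while the fold of the ratio between genotypes does not. In WBcel235, *iff-1* lies on chromosome III (9745862 to 9747193, minus strand) and *iff-2* on chromosome II (8559375 to 8561367, minus strand). The annotation places an antisense non-coding RNA, *T05G5.17*, over 138 bases of the exons of *iff-1*.

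The eEF1A genes, which encode the most abundant of the factors, also moved in opposite directions. *eef-1A.1* had 5105 and 5355 fpm in wild type compared with 6789 and 6880 fpm in mutants, a change of 0.39 ± 0.15 (SE, limma adjusted *P* = 0.0484). *eef-1A.2* had 766.1 and 826.2 fpm in wild type compared with 529.0 and 553.9 fpm in mutants, a fall by 0.56 ± 0.12 (adjusted *P* = 0.000352). Neither gene overlapped between genotypes. The call on *eef-1A.1* was the closest to the threshold and held under 7 of 18 alternatives, with a log2 fold change between 0.13 and 0.42, whereas *eef-1A.2* lay between -0.62 and -0.50.

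The ratio of *eef-1A.1* to *eef-1A.2*, a pair chosen after its values were seen and given here without a test, was 6.66 and 6.48 in wild type compared with 12.8 and 12.4 in mutants. *eef-1A.1* made up 86.8% of the summed FPKM of the pair in wild type and 92.7% in *meg-1 meg-2* embryos. Both genes have a deposited length of 1392 bp, while their annotated exons cover 1537 bp (*eef-1A.1*) and 1917 bp (*eef-1A.2*). They are close paralogs, so reads that match both are uncertain between them. In WBcel235, *eef-1A.1* lies on chromosome III (6970026 to 6971712, minus strand), where *F31E3.12* overlaps 77 bases of its exons on the opposite strand at 5.53 to 7.57 fpm. *eef-1A.2* lies on chromosome X (7823654 to 7825769, plus strand), with no exon of another gene over its own.

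**Figure D4:**
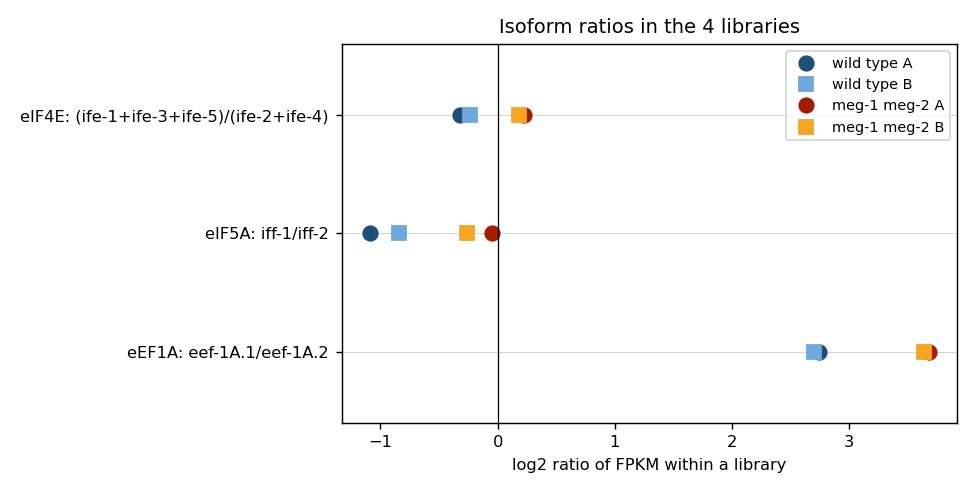
Log2 ratio of FPKM (horizontal axis) within each of the 4 libraries for the germline over the somatic eIF4E isoforms, *iff-1* over *iff-2*, and *eef-1A.1* over *eef-1A.2*. All 3 ratios were higher in both mutant libraries than in both wild-type libraries, by 0.48, 0.82 and 0.94.

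The genes of eEF1B, the exchange factor of eEF1A, were all higher in *meg-1 meg-2* embryos, 3 of 3. *eef-1B.1* had 327.5 and 365.2 fpm in wild type compared with 477.6 and 487.2 fpm in mutants (0.48 ± 0.12, SE, limma adjusted *P* = 0.00206). *eef-1B.2* had 146.6 and 164.2 fpm against 228.2 and 224.1 fpm (0.54 ± 0.12, adjusted *P* = 0.000575). *eef-1G*, the gene of the gamma subunit, had 719.1 and 808.2 fpm against 1062 and 1033 fpm (0.46 ± 0.12, adjusted *P* = 0.00415). In each gene the wild-type libraries were closer to each other than to either mutant library. The 3 changes were within one SE of each other, although the levels of the genes differed, with wild-type means of 539.4, 87.6 and 626.5 FPKM in the order given.

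*eef-2*, the gene of the translocation factor eEF2 and the second most abundant factor, had overlapping values. It had 2845 and 2950 fpm in wild type compared with 2862 and 2922 fpm in mutants, with both mutant values inside the wild-type range. The log2 fold change was -0.00263 ± 0.14 (SE, adjusted *P* = 0.991 by limma). Of the elongation factors, counting eIF5A, 5 of 8 were called higher and 1 lower, and of the initiation factors 4 of 19 were called higher. The shares over all genes tested were 13.8% higher and 7.84% lower, and the difference between the classes was not tested.

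The 3 factors on chromosome X, *eef-1A.2*, *ife-2* and *ife-4*, changed by a median of -0.02 on the log2 scale, with 0 called higher and 1, *eef-1A.2*, lower by limma (0 higher also at an unadjusted *P* below 0.05, and by edgeR and DESeq2). The 24 factors on autosomes had a median of 0.27, with 9 called higher and 0 lower (0 lower also at an unadjusted *P* below 0.05 and by DESeq2, and 1, *iff-2*, by edgeR). Over all genes tested, the median was -0.15 for the 1831 genes on X, of which 108 were called higher and 200 lower, and 0.04 for the 10788 on autosomes, of which 1645 were higher and 783 lower. The relation of chromosome to the difference between isoforms was not tested.

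Other genes of translation were measured in the same fit. In a list of 31 other translation genes, with 29 in the table and tested, 1 was higher and 2 were lower by limma, and the median log2 fold change was 0.07. The gene called higher was *iftb-1*, which encodes the beta subunit of eIF2, with 114.7 and 129.1 fpm in wild type compared with 164.1 and 164.5 fpm in mutants (0.43 ± 0.13, adjusted *P* = 0.00808). *ncl-1*, which encodes a repressor of nucleolar size and rRNA synthesis, was lower, with 137.7 and 145.6 fpm against 96.2 and 103.8 fpm (-0.50 ± 0.13, adjusted *P* = 0.00221). *Y18D10A.8*, now named *mxt-1*, was also lower, at 35.9 and 29.0 fpm against 23.6 and 24.1 fpm (-0.43 ± 0.16, adjusted *P* = 0.0400).

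Ribosomal protein genes mostly had lower values in mutants. Of 78 tested, 0 were called higher and 1 lower by limma, with 0 and 5 at an unadjusted *P* below 0.05, and the median log2 fold change was -0.15. Both mutant libraries lay below both wild-type libraries in 58 of the 78. Over all genes tested that share was 30.1%, while 13.8% were called higher and 7.84% lower. edgeR and DESeq2 called 0 higher, and 6 and 5 lower. The number called lower depended on the scaling. It was 6 under TMM scaling, 17 under quantile normalization and 11 under scaling by library size alone. Among all genes tested those counts were 926, 1060 and 1160. At an unadjusted *P* below 0.05, between 42 and 45 ribosomal protein genes were lower under those scalings and with edgeR. In 12 of the 78, wild type B was above wild type A, against 7681 of all 12734 genes tested. Among 31 aminoacyl-tRNA synthetase genes, whose products charge the tRNAs that eEF1A carries, 3 were higher and 0 lower, with 5 and 0 at an unadjusted *P* below 0.05, 3 higher and 0 lower also by edgeR and by DESeq2, and a median of 0.11. No test was made of the differences between these lists and the 27 factors.

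**Figure D5:**
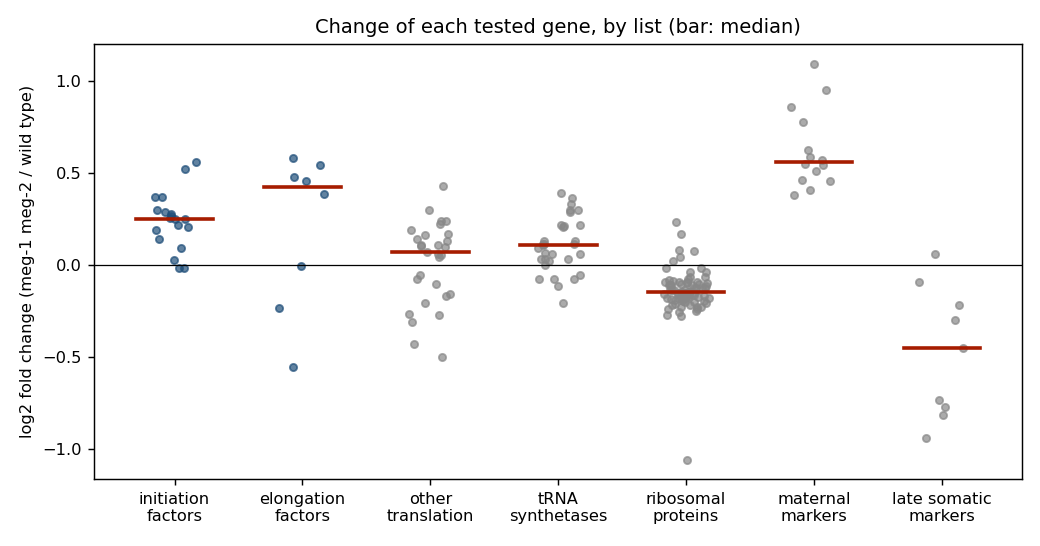
Log2 fold change in mutants relative to wild type (vertical axis, log2(fpm + 0.5), limma) for each tested gene of the initiation and elongation factors, of 3 other lists of translation genes and of the maternal and late somatic markers. Points are genes and bars are medians, which were 0.25 for initiation factors, 0.42 for elongation factors, 0.07 for other translation genes, 0.11 for synthetases, -0.15 for ribosomal proteins, 0.56 for maternal markers and -0.45 for late somatic markers.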

How the data were processed

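The study measured RNA by stranded RNA-seq in 2 libraries per genotype. As the paper's methods and the labels state, rRNA was removed, libraries were made from 1 µg of total RNA with 12 cycles of PCR, reads were aligned to ce10 with HISAT2, counted on genes with HTSeq and compared with DESeq2. Versions, the annotation and the strand setting of the counting are not given in the sources used here.

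The signal that the authors deposited is, for each genotype, the mean fpm of its 2 libraries, reads scaled by size factors and depth. The authors also deposited FPKM, in which each mean fpm is divided by length in bp, and which is so 1000 times smaller than FPKM in this report, which uses kb. The other columns that the authors deposited, the log2 fold change and the adjusted p-value of their DESeq2 comparison, were not used. The lengths are those of coding sequence or near it, since 25 of 27 (and 93.2% of 19574 protein-coding genes) are multiples of 3. The exons of the factors in WBcel235 are longer, by amounts that differ between genes. Comparisons of FPKM between genes therefore depend on the length used.

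Counts per library were recovered from the means. Each mean is a whole number of reads times one step plus a whole number times another, and, within a relative rounding of 8e-15, 1 pair was found for 100% of wild-type and 99.9976% of *meg-1 meg-2* means. The remaining gene was settled by the size factors, which gave the same steps within 9.99e-16. Libraries are named A and B and were not matched to the labels' replicates. The design had assumed values per library on a normalized scale. One read was worth 0.0380 to 0.0498 fpm, and a count of 0 allows 3 reads, 0.114 to 0.149 fpm. Such limits cover counting error only.

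The test was limma 3.58.1 (R 4.3.3, lmFit, eBayes with trend) on log2(fpm + 0.5), so that fold changes of low genes are understated. It covered 12734 genes with a mean of at least 1 fpm and was Benjamini-Hochberg adjusted. The test was also run on simulated data in which all libraries had the same spread, unlike the wild-type and mutant pairs here. The fpm scale replaced FPKM because FPKM admits short genes with few reads. edgeR 4.0.16 and DESeq2 1.42.0 on the recovered counts, other scalings, filters and pseudocounts, and leaving out each library were alternatives. The isoform ratios used exact permutation tests. The factors were set by name, while the other lists were chosen with earlier results of these data known. All eIF4E, eIF4G, eIF5A and eEF genes and other factors with an adjusted *P* below 0.05 were named with all values. Of 42048 identifiers, 41759 matched the WBcel235 annotation, from which coordinates come, and none were converted. The libraries of a genotype are biological replicates by their labels, and *P*-values cover no source of variation beyond the spread between them. In limma the spread of each gene is also drawn towards a trend with level over all genes tested.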

Additional observations from a re-analysis of the deposited data

How the results depend on the processing

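Values are numbers of genes called by limma, higher and lower, unless stated. For the 27 factors (9 and 1 as reported) they were 0 and 0 without a filter on low values and on the FPKM scale, 0 and 1 by limma without the trend, and 7 and 2 with TMM scaling, quantile normalization, scaling by library size alone and edgeR. Without a filter and on the FPKM scale, 12 factors had a higher and 1 a lower value at an unadjusted *P* below 0.05. Without the trend these numbers were 9 and 1. For all genes (1760 and 998) they were 3 and 1 without a filter, 95 and 72 on the FPKM scale, and 654 and 332 without the trend, and edgeR and DESeq2 on the recovered reads called 1184 and 917, and 1392 and 954. The share of calls that were higher went from 63.8% to 52.1% with scaling by library size alone and 75.0% without a filter, and among the factors from 90.0% to 77.8% with the scalings named. For the 29 other translation genes (1 and 2) they were 0 and 0 without a filter, on the FPKM scale and without the trend, 1 and 4 with TMM scaling and with edgeR, 2 and 6 with quantile normalization, 1 and 5 with scaling by library size alone, 2 and 5 with DESeq2, 2 and 3 with a filter at 5 fpm, and 1 and 1 with the trend on gene length removed. Leaving out each library gave 0 to 20 factors higher and 0 to 2 lower, 27 to 4566 and 14 to 3296 genes in all, and 0 to 16 and 0 to 9 other translation genes. The lowest counts came without a mutant library, the highest counts of higher genes without wild type B. The other causes were not tested.

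The isoform differences kept their direction in every alternative run. *eef-1A.2* passed the threshold in 14 of 18 alternatives, *ife-1*, *ife-3*, *iff-1*, *eef-1B.1*, *eef-1B.2* and *eef-1G* in 13, *eif-1.A* in 12, and *eif-1* and *eef-1A.1* in 7. No paired analysis was possible because libraries A and B were recovered from means and not matched to the labels' replicates. The labels also give no replicate numbers. With 2 libraries per genotype, an exact test of a single ratio cannot reach 0.05, and *ife-5*, at 62 to 80 reads, has the widest error of the factors.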

Other observations

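In 12 genes whose names in the current annotation start with *eif-*, but which the table lists under other names, levels were also mostly above wild type. These genes were found after the table was seen. By limma 5 of 12 were called higher and 0 lower, with 7 higher and 0 lower at an unadjusted *P* below 0.05, 5 and 0 called by edgeR and by DESeq2, and a median log2 fold change of 0.30. They include subunits of eIF2, which brings the initiator tRNA, and of eIF2B, its exchange factor. *E04D5.1* (eIF2A) had 133.6 and 149.3 fpm in wild type compared with 206.7 and 204.4 fpm in mutants (0.54 ± 0.12, SE, limma adjusted *P* = 0.000652). *Y47H9C.7* (eIF2B beta) had 29.1 and 30.1 fpm against 40.7 and 39.3 fpm (0.43 ± 0.15, adjusted *P* = 0.0299), a gene in which the wild-type libraries were close to each other. *C25H3.4* (eIF2D) had 35.3 and 42.6 fpm against 54.8 and 50.6 fpm (0.44 ± 0.14, adjusted *P* = 0.0211), and *F11A3.2* (eIF2B delta) 77.3 and 89.3 fpm against 106.1 and 105.4 fpm (0.35 ± 0.13, adjusted *P* = 0.0434).

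Of the subunits of eIF2, *iftb-1* (beta) was the fifth of the genes called higher. The values of *Y39G10AR.8* (gamma) were 198.4 and 232.9 fpm in wild type compared with 267.1 and 263.8 fpm in mutants (0.30 ± 0.12, limma adjusted *P* = 0.0600), and those of *Y37E3.10* (alpha) were 123.9 and 140.7 fpm against 145.7 and 146.6 fpm (0.15 ± 0.13, adjusted *P* = 0.412). *C17G10.9* (eIF3 subunit L) and *Y65B4A.6* (the helicase eIF4A3) had overlapping values, with log2 fold changes of 0.05 and 0.01. Wild type B was above wild type A in 12 of the 12 genes, as in the 27 factors.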
